A study of Mus musculus with 8 samples.

Results

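Rnf213 encodes a giant protein that joins an AAA+ ATPase motor to an E3 ubiquitin ligase, an enzyme that attaches ubiquitin to its targets, and variants of the human gene are best known for their link to moyamoya disease of the brain arteries. SRSF3 is a small SR protein that binds exons, introns and untranslated regions and acts in splicing, polyadenylation and mRNA export. The transcript was followed here as the plus-strand positions of SRSF3-GFP iCLIP on chromosome 11 from 119254001 to 119350000 (mm9), an interval of 96 kb that was chosen because its signal was already known to be high. Its level and its rank are therefore descriptions. The interval held 1111 of the 769652 positions listed for replicate 1, 2902 of the 2093525 listed for replicate 2 and 4838 of the 3846902 in the merged track.

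The series held 8 mouse samples: 3 adult hearts of SRSF3flox/flox;alphaMHC-CreERT2 mice, 3 adult hearts of alphaMHC-CreERT2 control mice, and 2 iCLIP replicates of cardiomyocytes from newborn C57BL/6 pups. The hearts are not analysed here, and knockout was not compared with control. For iCLIP, plated cells were given 15 µg of modified mRNA for SRSF3 fused to green fluorescent protein, and 48 h later RNA and protein were crosslinked with 100 mJ of UV light at 254 nm. Each cDNA then marks the nucleotide next to a crosslink, because the reverse transcriptase stops there. The protein was thus an introduced, tagged copy in plated cells, no control immunoprecipitation was used here, and separate cultures are not named for the replicates. Differences between the replicates measure only the spread between these 2 libraries, which may be technical.

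Replicate 1 held 815414 cDNAs and replicate 2 held 2253688. The merged track of 4207555 cDNAs sums 5 libraries, of which 3 are further ones with no group in the labels. What remains after subtracting both replicates, 1138453 cDNAs, is a pooled value with no SD and is referred to as the other libraries. Values are given as cDNAs per 1000000 cDNAs of the library (CPM). A count of 0 allows up to 3.68 CPM in replicate 1, 1.33 CPM in replicate 2 and 2.64 CPM in the other libraries, for counting error only. Markers of cardiomyocytes or of other heart cells could not be placed, because the annotation used here is on another genome build.

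The name of the interval was checked by length. In GENCODE M21 the gene (ENSMUSG00000070327.14) lies on the plus strand of chromosome 11 from 119393100 to 119487418 of GRCm38, a length of 94319 nt, and these coordinates were not converted to mm9. In the merged track, the first position of any 100 nt that held at least 10 cDNAs was 119254377 and the last was 119348615 (mm9), a span of 94239 nt. Requiring 8 cDNAs gave a span of 94262 nt and requiring 5 gave 95238 nt, with the same first position. The covered stretch was thus about as long as the annotated gene, and it lay on the same strand and chromosome. The order of genes on GRCm38 places Slc26a11 and Mir1932 before Rnf213 on the same strand and Endov after it, and A930037H05Rik within it on the opposite strand.

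SRSF3-GFP cDNAs covered the whole Rnf213 interval at a high and nearly equal level in both replicates. Replicate 1 had 1164 cDNAs on the plus strand, or 1427 CPM (exact 95% Poisson interval 1347 to 1512). Replicate 2 had 3152 cDNAs, or 1399 CPM (1350 to 1448). The mean was 1413 ± 20.4 CPM (SD, n = 2), or 14.7 ± 0.21 CPM per kb. The log2 ratio of replicate 1 to replicate 2 was 0.03 (exact 95% interval -0.07 to 0.13), so no difference was detectable between them at this depth. The interval took 0.143% of the replicate 1 library and 0.140% of the replicate 2 library.

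Outside the gene the plus strand was sparse. The 40 kb before the interval held 18, 32 and 33 cDNAs in replicate 1, replicate 2 and the other libraries, so the interval was 26.9, 41.0 and 14.8 times as dense per kb. The 40 kb after it held 18, 70 and 43 cDNAs, which made the interval 26.9, 18.8 and 11.4 times as dense. The opposite strand of the interval itself held 3 cDNAs in replicate 1 and 11 in replicate 2, which is 0.257% (Wilson 95% interval 0.0875% to 0.753%) and 0.348% (0.194% to 0.622%) of the cDNAs on both strands. The signal was therefore almost all sense to the gene in the replicates. cDNA counts also follow RNA abundance, which these tracks do not give, and fewer cells making the transcript cannot be told apart from less RNA per cell.

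Both ends of the covered stretch were visible without an annotation. At the 5′ end, the 5 kb before position 119254377 held 4, 4 and 1 cDNAs in replicate 1, replicate 2 and the other libraries, and the first 5 kb from it held 40, 116 and 39. The first 100 nt held 1, 16 and 7 cDNAs and the first 10 nt held 1, 7 and 2. The edge was defined by such a dense 100 nt, so these 2 sets of counts are no separate measure of a sharp start. In steps of 250 nt from the edge, the first held 2, 21 and 8 cDNAs and the next 3, 3 and 0. Position 119254385, 8 nt in, was among the deepest of the interval with 1 cDNA in replicate 1 and 4 in replicate 2. The single cDNA of replicate 1 in the first 100 nt means that the place of the edge rests on replicate 2 and the other libraries.

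At the 3′ end the fall was less complete. The last 5 kb up to 119348615 held 61, 142 and 47 cDNAs in replicate 1, replicate 2 and the other libraries, and the next 5 kb held 6, 21 and 16. A low tail went on beyond it, with 20, 68 and 39 cDNAs in the first 20 kb. Both replicates and the other libraries thus had cDNAs past the point where the dense signal stopped. Endov is the next gene on the same strand in GRCm38, and whether the tail belongs to it was not tested.

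**Figure D1:**
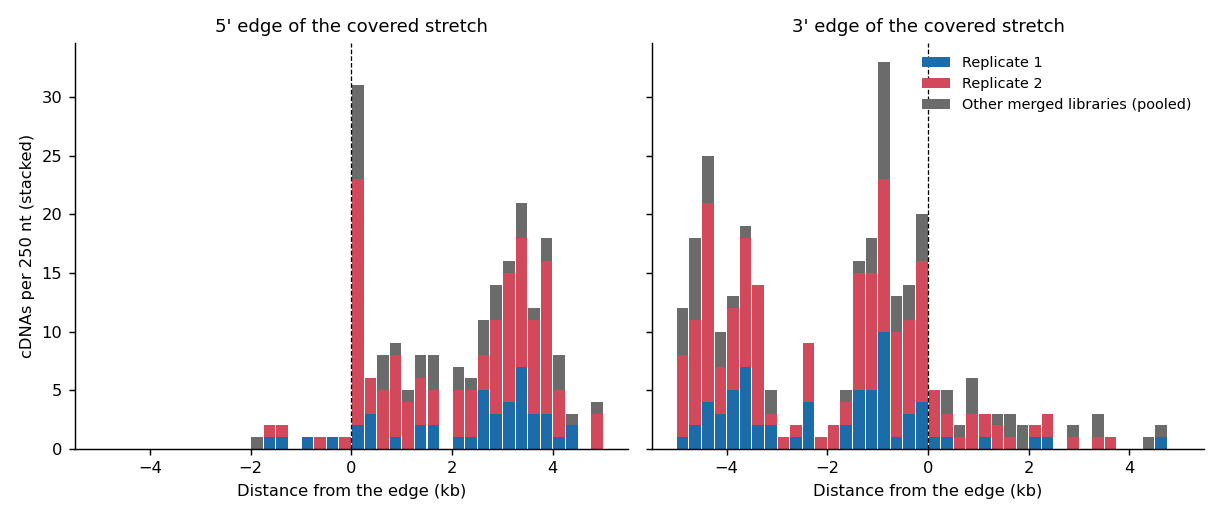
cDNAs per 250 nt, stacked over replicate 1, replicate 2 and the other libraries, against the distance from the first (left) and last (right) position of the densely covered stretch in kb. Few cDNAs lie before the 5′ edge, whose place was set by a dense 100 nt, while beyond the 3′ edge a low tail continues in both replicates and the other libraries.

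Between these ends the transcript was covered from one side to the other, with no gap of 1 kb. All 96 windows of 1 kb held at least 1 cDNA in replicate 1, in replicate 2 and in the other libraries. Windows of replicate 1 ranged from 1 to 35 cDNAs with a median of 11.5, and those of replicate 2 from 4 to 88 with a median of 32. In CPM the medians were 14.1 and 14.2 and the highest windows 42.9 and 39.0. The strongest window was therefore 3.04 times the median window in replicate 1 and 2.75 times in replicate 2. The longest stretch without a cDNA of any library was 452 nt, from 119258808 to 119259259, and 26 stretches of 200 nt or more were empty.

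The windows of Rnf213 stood high among the windows of the genome with a cDNA in both replicates. Of 273185 windows of 1 kb and strand with a cDNA in both replicates, the median had 1.23 CPM in its lower replicate. The median Rnf213 window had 12.3 CPM. A value of 1.23 CPM is 1 cDNA in replicate 1, the least that this set admits there. The contrast is thus with the floor of counting. By that measure 89 of the 96 Rnf213 windows were among the strongest 10% and 45 among the strongest 1%. The best of them ranked 502 in the genome.

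**Figure D2:**
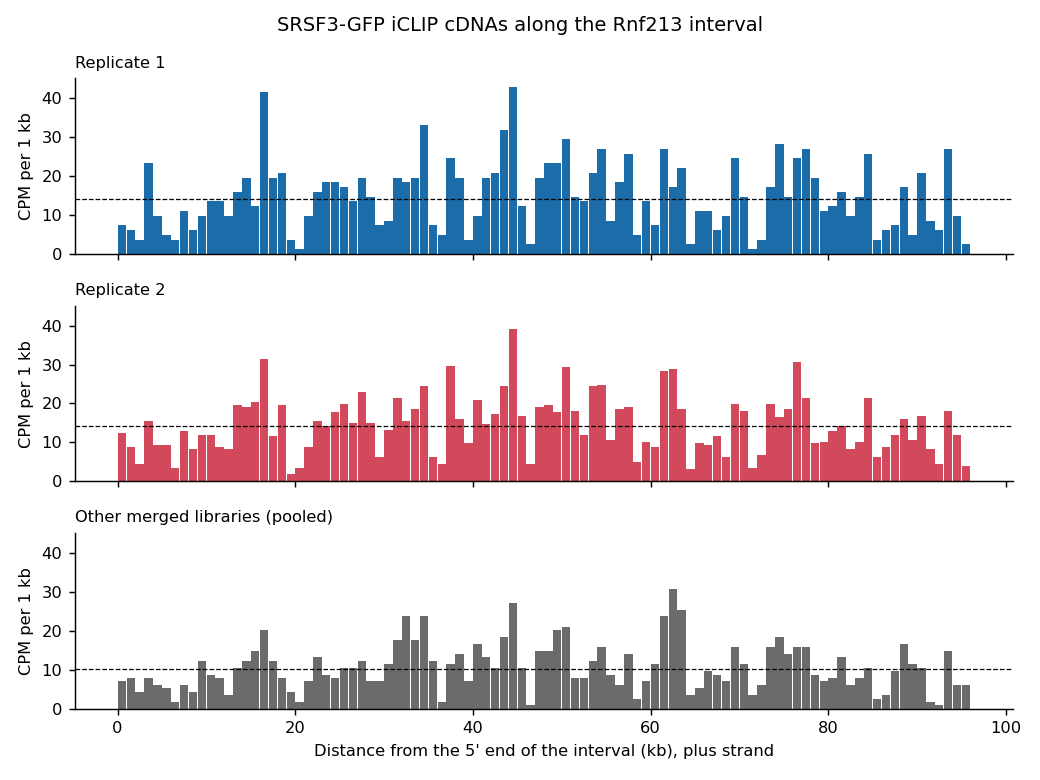
CPM per 1 kb window of the plus strand against the distance from the 5′ end of the interval in kb, for replicate 1, replicate 2 and the pooled other libraries, with the median window as a dashed line. The replicates have medians of 14.1 and 14.2 CPM and the other libraries 10.1 CPM, and the correlations over windows run from 0.751 to 0.868.

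From 5′ to 3′ the density showed no steady rise or fall. The first 48 kb of the interval held 49.8% of its cDNAs in replicate 1 (Wilson 95% interval 47.0% to 52.7%), 50.4% in replicate 2 (48.6% to 52.1%) and 48.9% in the other libraries (46.1% to 51.8%). Spearman's rho between window order and cDNAs was 0.04, -0.0018 and 0.06 in the same order, over 96 windows that share a transcript and are not independent. Stretches of 24 kb differed more. From 5′ to 3′ the 4 stretches held 21.0 ± 0.21%, 29.1 ± 0.60%, 26.7 ± 0.29% and 23.2 ± 0.68% of the cDNAs (SD, n = 2). In the other libraries they held 19.1%, 29.9%, 28.6% and 22.5%, so the 2 in the middle were the fuller ones in each library.

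**Figure D3:**
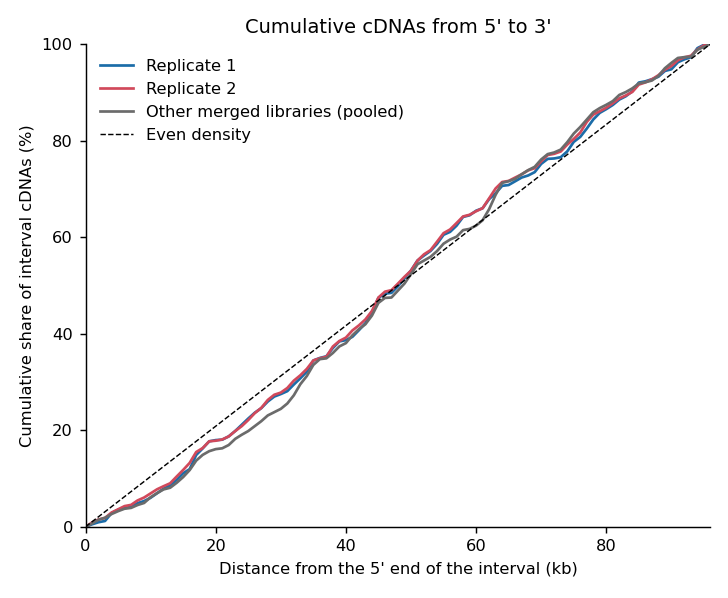
Cumulative share of the interval's cDNAs (%) against the distance from its 5′ end in kb for replicate 1, replicate 2 and the other libraries, with a dashed line for even density. The curves stay close to the dashed line and lie below it over the first 24 kb, which held 21.1%, 20.8% and 19.1% of the cDNAs.

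The strongest window, chromosome 11 from 119298001 to 119299000, lay 44 kb from the 5′ end of the interval. It held 35 cDNAs in replicate 1, 88 in replicate 2 and 31 in the other libraries, which is 41.0 ± 2.7 CPM (SD, n = 2) and 27.2 CPM. It was the strongest window of each replicate and not of the other libraries. The next, from 119270001 to 119271000, held 34, 71 and 23 cDNAs, or 36.6 ± 7.2 CPM (SD, n = 2) in the replicates. The 8 that followed in the order of the lower replicate had 24.1 to 29.4 CPM and started at 119304001, 119315001, 119308001, 119291001, 119330001, 119288001, 119297001 and 119331001. The windows at 119297001 and 119298001 are neighbours, and so are those at 119330001 and 119331001. Together the 10 windows held 21.6% of the interval's cDNAs in replicate 1, 20.3% in replicate 2 and 18.7% in the other libraries.

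Low windows also recurred. The window from 119325001 to 119326000 held 1, 8 and 4 cDNAs in replicate 1, replicate 2 and the other libraries, and that from 119274001 to 119275000 held 1, 8 and 2. Its neighbour from 119273001 held 3, 4 and 5 cDNAs. These windows were at 2.39 ± 1.6, 2.39 ± 1.6 and 2.73 ± 1.3 CPM (SD, n = 2), below the medians of both replicates. How uniquely reads map in these windows was not tested.

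Over the 96 windows the 2 replicates were correlated with r = 0.868 (Pearson) and rho = 0.860 (Spearman). Replicate 1 and the other libraries had an r of 0.751, and replicate 2 and the other libraries an r of 0.798. These values describe windows of 1 transcript that share its sequence, and their counts are small in replicate 1. The spread over windows exceeded counting error. Variance over mean of the cDNAs per window was 4.25 in replicate 1, 8.59 in replicate 2 and 4.03 in the other libraries. Counts that vary by counting error alone have equal variance and mean. For the same relative unevenness this ratio grows with the mean count. The higher value of the deeper replicate 2 therefore does not show that it is more uneven.

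No window of Rnf213 passed the test for a difference between the replicates. Of the genome's 16212 windows with at least 20 cDNAs over both replicates, 17 differed (0.105%; two-sided exact binomial test given both library totals, with Benjamini-Hochberg adjustment over all of them), and 5.16% had an unadjusted p under 0.05. Of the 83 Rnf213 windows tested, 0 passed and 2 had an unadjusted p under 0.05. The nearest was the window from 119332001, with 16 cDNAs in replicate 1 and 22 in replicate 2, a log2 ratio of 1.01 (exact 95% interval -0.02 to 2.0, exact binomial test, adjusted p = 0.918). At these counts the intervals are wide, so a difference of 2-fold in a single window was mostly not detectable.

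**Figure D4:**
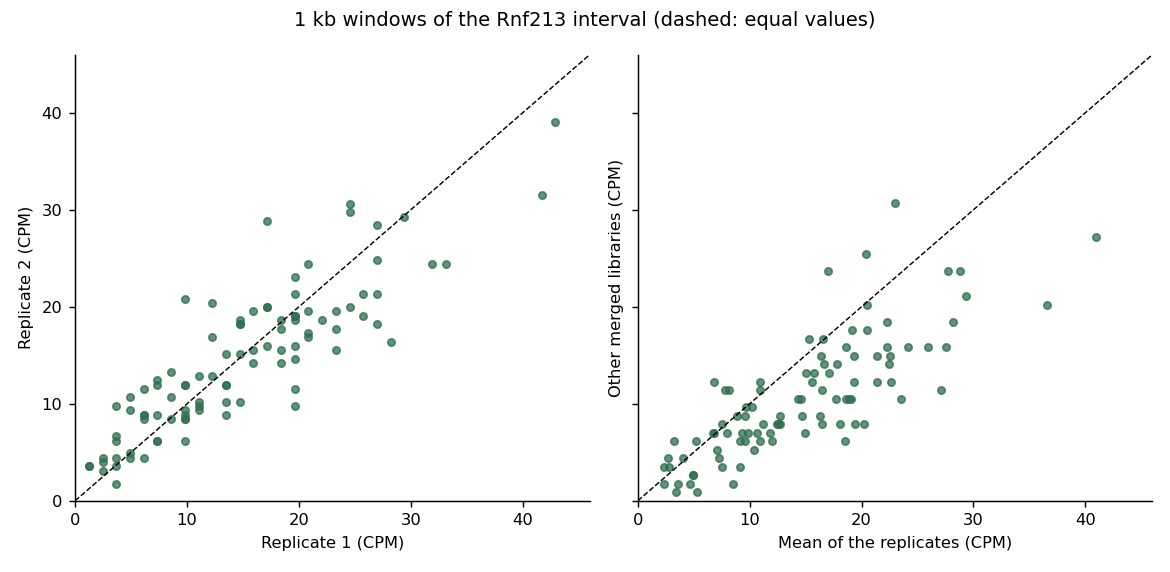
Each point is a 1 kb window of the interval. The left panel plots replicate 2 against replicate 1 and the right panel the other libraries against the mean of the replicates, all in CPM, with a dashed line of equal values; replicate points scatter around the line (r = 0.868), and most points of the other libraries lie below it.

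Over the interval the cDNAs were spread over many nucleotides, and no position held more than 7 of the 5491 cDNAs of the merged track. Positions with no more than 1 cDNA made up 95.5% of those of replicate 1 in the interval and 92.8% of those of replicate 2, against 96.9% and 95.9% over the whole libraries. The deepest position of the merged track, 119323438, held 5 cDNAs in replicate 1, 1 in replicate 2 and 1 in the other libraries. Position 119279490 held 6 cDNAs, all in replicate 2. Positions 119331452 and 119344232 each held 1 cDNA in replicate 1 and 5 in replicate 2. Most cDNAs of each of these positions came from 1 library, which except at 119323438 was the deeper replicate 2. Position 119291608 also held 6 cDNAs in the merged track. These were spread over replicate 1 with 2, replicate 2 with 3 and the other libraries with 1.

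No position had 3 cDNAs in each replicate. Only 119291608, with 2 in replicate 1, 3 in replicate 2 and 1 in the other libraries, and 119333907, with 2, 2 and 0, had at least 2 in each. Of the 1111 replicate 1 positions, 137 were also listed in replicate 2, which is 12.3% (Wilson 95% interval 10.5% to 14.4%), against 5.02% over the whole library. Replicate 2 listed 3.02% of the nucleotides of the interval, and such dense coverage by itself raises this share. Among replicate 1 positions with 2 or more cDNAs, 8 of 50 recurred in Rnf213, 16% (8.34% to 28.5%), against 38.5% over the whole library. These 2 classes were not matched for depth. Elsewhere a position reached 379 cDNAs over both replicates, against at most 6 in Rnf213. Whether the lower share in Rnf213 reflects this was not tested. Within 1 nt, 25.2% of the replicate 1 positions had a replicate 2 position, and within 10 nt 64.4% had one. The dense coverage of replicate 2 raises these shares as well, and more so at the wider distance. The shares that coverage alone would give were not computed, so these values do not show that binding recurs at nearby nucleotides.

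At a width of 50 nt, 82 of the 1920 windows of the interval (4.27%) held at least 3 cDNAs in each replicate and were taken as sites. The threshold cut through a continuous range: 46 sites had 3 cDNAs in the lower replicate, and 119 windows just missed with 2. Sites held 27.1% of the interval's cDNAs in replicate 1 and 16.7% in replicate 2. Those shares are raised by the choice of the sites, most of all in the shallower replicate 1, which had 106 windows of at least 3 cDNAs against 435 in replicate 2. The other libraries, which took no part in the choice, had a cDNA in 62 of the 82 sites, against 727 of all 1920 windows. Sites held 12.5% of their interval cDNAs.

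The strongest site was chromosome 11 from 119281401 to 119281450, 27024 nt from the 5′ edge. It held 9 cDNAs in replicate 1, 15 in replicate 2 and 2 in the other libraries, or 8.85 ± 3.1 CPM (SD, n = 2), on 15 positions of which none had more than 3. It ranked 1386 of the 10333 windows of 50 nt in the genome that met the same rule. The site from 119305001 to 119305050 followed with 6, 12 and 4 cDNAs, 6.34 ± 1.4 CPM (SD, n = 2). The site from 119270301 to 119270350 held 4 and 15 cDNAs in the replicates and 0 in the other libraries. High cDNA counts in a site were therefore spread over 13 to 16 nucleotides in these examples. Other sites were less spread in the merged track. That from 119323401 to 119323450 had 6 positions, the deepest with 7 cDNAs. The site from 119344201 to 119344250 had 6 positions, the deepest with 6 cDNAs.

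Of the 10 strongest sites, 4 lay within about 2 kb of each other, 75024 to 77074 nt from the 5′ edge, starting at 119329401, 119330151, 119330201 and 119331451. They held 5, 4, 4 and 5 cDNAs in replicate 1, 11, 10, 11 and 11 in replicate 2, and 1, 6, 1 and 1 in the other libraries. Those at 119330151 and 119330201 are neighbours, and together they run over the 100 nt to 119330250. Among these 4 sites, only that at 119331451 had a position of 6 cDNAs in the merged track. The 3 of the 10 not yet named started at 119310101, 119311401 and 119323501, with 4, 6 and 4 cDNAs in replicate 1 and 10 in replicate 2 at each.

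Part of the signal must lie outside annotated exons, wherever the exons fall in mm9. In GENCODE M21, Rnf213 has 68 exons after overlapping ones are merged, with 16888 nt together, 17.9% of the gene, and its longest transcript has 16716 nt. On any grid of 100 nt these exons can touch at most 267 of the 960 windows of the interval. Replicate 1 had cDNAs in 554 such windows, replicate 2 in 790 and the other libraries in 550. If the exons were placed in the 267 windows with the most cDNAs of each library, 26.1% of the cDNAs in replicate 1, 34.3% in replicate 2 and 27.1% in the other libraries would still lie elsewhere. These shares are lower limits that assume the exon lengths of GRCm38 hold in mm9, and the actual shares were not measured. Windows of 50 nt gave 23.4%, 33.4% and 24.6%, and windows of 200 nt gave 23.7%, 28.0% and 23.1%.

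Among long covered stretches, Rnf213 was one of the more even over 1 kb windows. The genome was cut into tiles of 96 kb placed so that the interval is 1 of them, and 254 tiles held at least 1000 cDNAs over both replicates. Rnf213 ranked 18 among them with 4316 cDNAs. Its 10 strongest windows, chosen on the 2 replicates together, held 20.9% of its cDNAs, against a median of 30.0% and a range of 16.4% to 100% over the tiles, and 11 tiles had a lower share. Of the 18 tiles with as many cDNAs or more, Rnf213 included, 1 had a lower share. Tiles other than this one were not placed on genes, and one that a gene fills in part can have a higher share for that reason alone. The count of covered windows was 96 for Rnf213 and 89 for the median tile, and 61 tiles had all 96 covered. The deepest position of Rnf213 held 6 cDNAs over both replicates, against a median of 4 over the tiles, and 172 of the 254 tiles had a lower highest position. These tiles were not matched for cDNAs, and most held fewer than Rnf213. Among the tiles with more cDNAs, only the one with 5370 had a lower highest position, of 5 cDNAs.

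The other libraries had less Rnf213 than the replicates, and so did most strongly covered tiles. They held 1175 cDNAs in the interval, or 1032 CPM (exact 95% Poisson interval 974 to 1093), which is 73.4% of the 1406 CPM of the replicates together. The log2 ratio was -0.45 (exact 95% interval -0.54 to -0.35; exact binomial test adjusted over 12372 tiles with at least 50 cDNAs, adjusted p = 1.34e-20). Of all those tiles, 45.8% differed, 19.8% being lower in the other libraries and 26% higher, so that a call of this kind was common. Against replicate 1 alone the ratio was -0.47 and against replicate 2 alone -0.44. Over all 12372 tiles the median ratio was 0.03, and 25.2% lay lower than Rnf213. Among the 426 tiles with at least 1000 cDNAs over the replicates and the other libraries together, the median ratio was -0.51 and 230 lay lower. Rnf213 therefore stood near the middle of such strongly covered tiles, but not of all tiles. The replicates hold most of the cDNAs, so a tile that is high in them reaches this minimum more readily.

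**Figure D5:**
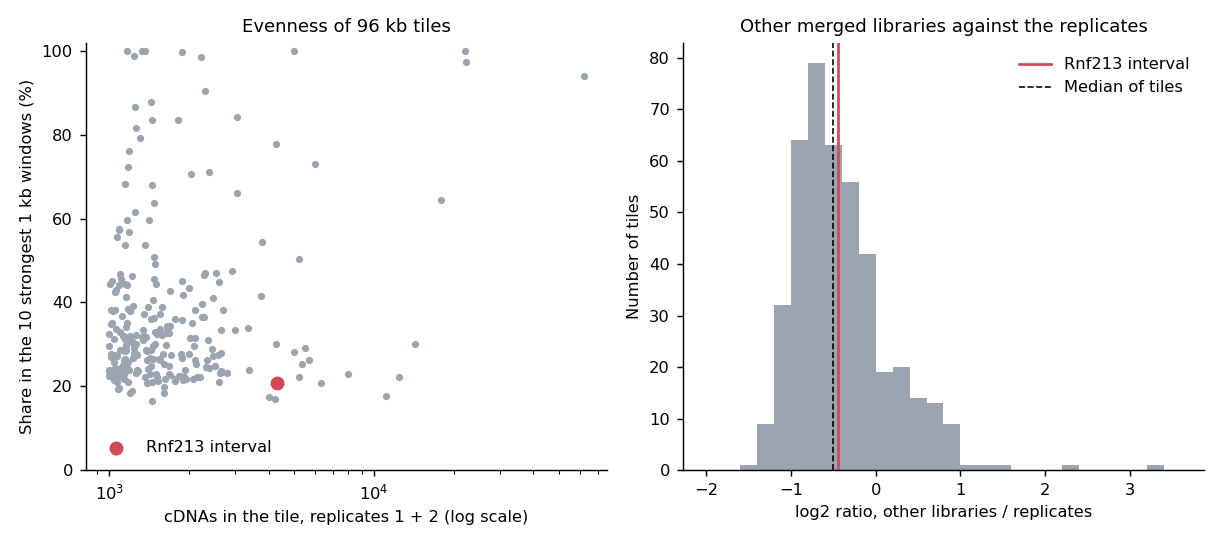
Left, the share of cDNAs in the 10 strongest 1 kb windows (%) of each 96 kb tile against its cDNAs over both replicates (log axis). Right, the number of tiles with at least 1000 cDNAs over the replicates and the other libraries by log2 ratio of the other libraries to the replicates; the Rnf213 interval (red) has a share of 20.9% and a ratio of -0.45, beside a median ratio of -0.51 (dashed).

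Along the transcript the lower level was shared by most windows. Of the 85 Rnf213 windows with at least 20 cDNAs, 74 (87.1%) had a log2 ratio under 0, against 61.2% of the 28369 windows of the genome tested. The median ratio was -0.50 in the interval and -0.29 over all windows. The genome's windows were not matched for coverage. Among tiles, the strongly covered ones had a median ratio of -0.51 against 0.03 over all. These window values therefore do not set Rnf213 apart from other strongly covered stretches. In the genome 5.13% of windows were lower in the other libraries and 7.4% higher (12.5% in either direction; two-sided exact binomial test, Benjamini-Hochberg adjusted). In Rnf213, 2 windows passed, both lower, and 13 had an unadjusted p under 0.05, against 24.7% of windows in the genome. A share of 2.35% of windows called is below that of the genome and is no result about Rnf213.

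The window from 119291001 to 119292000 held 13 cDNAs in the other libraries and 87 in the replicates, 11.4 and 28.3 CPM, with a log2 ratio of -1.31 (exact 95% interval -2.28 to -0.46, exact binomial test, adjusted p = 0.0125). The window from 119310001 to 119311000 held 7 and 57 cDNAs, 6.15 and 18.6 CPM, with a ratio of -1.59 (-2.97 to -0.46, exact binomial test, adjusted p = 0.0274). The first holds the position with at least 2 cDNAs in each replicate at 119291608, and the second the site that starts at 119310101. With a minimum of 10 cDNAs per window the second was no longer called (exact binomial test, adjusted p = 0.0535). With a minimum of 50 both were called, with 4 further windows. Without replicate 2 neither was called (exact binomial test, adjusted p = 0.0954 and 0.0548) and 3 different windows were, starting at 119257001, 119270001 and 119338001. The labels give no group or protocol for the other libraries, so all these calls compare libraries and not conditions.

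The highest window of the other libraries lay 62 kb from the 5′ end of the interval. From 119316001 to 119317000 they held 35 cDNAs, or 30.7 CPM, and the replicates held 14 and 65, or 17.2 and 28.8 CPM. This window was named after its values were seen. It did not pass the test, and 0 windows of Rnf213 were called higher in the other libraries.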

How the data were processed

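SRSF3-GFP iCLIP was measured in 2 replicates of neonatal cardiomyocytes, grouped by the labels. In the tracks that the authors deposited, each listed nucleotide has a score: a whole number of cDNAs, positive on the plus strand and negative on the minus strand. No scaling by depth was applied to these scores, judging from the values. The file headers name the genome mm9 and the annotation Ensembl 59, and the submitters' processing notes list Bowtie 0.10.1. The collapsing of duplicate cDNAs and the placing of reads with several matches are not stated in any source used. Both can change how many cDNAs a repeated sequence shows.

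The interval, the windows and the comparisons were chosen with earlier results of these data known. cDNAs were summed per window and divided by the library total. Means and SDs are over 2 replicates, and intervals (95% Wilson, Poisson or binomial) and the 0 limit of 3 cDNAs cover counting error only. Windows of 1 kb with at least 20 cDNAs were tested genome-wide with a two-sided exact binomial test at an adjusted p of 0.05. Tiles of 96 kb were added after the data were seen. Named by rule were the 10 strongest windows and 10 strongest sites by the lower replicate, windows called between libraries, and positions with at least 3 cDNAs in each replicate. On simulated windows with planted 4-fold changes the test called 86 of 100 between the replicates (12909 windows) and 93 of 100 for the other libraries (15628 windows). For 2-fold changes it called 10 of 93 and 24 of 100. All planted changes were increases, in replicate 1 or in the other libraries, and the simulated counts carried counting error alone. Windows were taken for having at least 20 cDNAs over the replicates. Decreases in the other libraries, such as those called in Rnf213, were not simulated. Window size, thresholds, positions in place of cDNAs, library totals and leaving out a replicate were varied.

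Coordinates are 1-based mm9. The reference was on GRCm38, so it gave only names, strand, gene order and lengths, no coordinate was converted, and exons, sequence and motifs at the positions, and other genes of the ubiquitin pathway, were not analysed here. Python 3.11.15, scipy 1.17.1 and pandas 2.3.3 were used.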

Additional observations from a re-analysis of the deposited data

Results flagged for a closer look

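The opposite strand of the Rnf213 interval, which the comparisons do not use, held 19 cDNAs in the other libraries, 11 in replicate 2 and 3 in replicate 1. In the other libraries these were 1.59% of the cDNAs on both strands (Wilson 95% interval 1.02% to 2.47%), against 0.323% in the replicates together. In the last 24 kb of the interval lay 13 of the 19, against 1 of 3 in replicate 1 and 4 of 11 in replicate 2. For the last 32 kb, a length chosen after the positions were seen, the numbers were 18, 1 and 5. A930037H05Rik is annotated on this strand within Rnf213 in GRCm38, and whether the cDNAs belong to it was not tested. Over 252 tiles with at least 1000 cDNAs on a strand, the weaker strand held a median of 0.655% in the replicates and 0.673% in the other libraries. The share was higher in the other libraries in 127 of these tiles (50.4%). In the replicates, 68 tiles had a lower share than the Rnf213 interval.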

How the results depend on the processing

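The level of the interval was 1399 to 1427 CPM when a replicate was left out, 1442 with positions capped at 3 cDNAs and 1490 with totals that left out the mitochondrial genome and the strongest windows. The median density, 14.2 CPM per kb, was 14.1 to 14.2 without a replicate, 12.3 with 500 nt windows, 14.1 with 2 kb windows and 14.2 with windows shifted by 500 nt. The number of sites followed its rule: 82 became 31 at 20 nt, 136 at 100 nt, 201 with at least 2 cDNAs in each replicate, 17 with at least 5, and 106 to 435 when a replicate was left out, the highest without replicate 1. Between the replicates, counting positions in place of cDNAs raised the genome's differing windows from 17 to 42, and Rnf213 had 0 in each alternative run. For the other libraries, 3555 windows differed in the genome, 1877 with at least 50 cDNAs, and 1929 to 3167 without a replicate, the lowest without replicate 2. In Rnf213 the 2 called windows became 1 with at least 10 cDNAs and 6 with at least 50, all lower, and 2 to 3 without a replicate; those without replicate 2 were different windows. The ratio of the whole interval, -0.45, lay between -0.42 (positions) and -0.47 (without replicate 2) in the alternatives run, and kept its call. Leaving out a replicate gave no value for the comparison between the replicates. No paired analysis was possible because the 2 replicates form a single group and the hearts that share their numbers are not analysed here. Depth limits single windows: a Rnf213 window had a median of 11.5 cDNAs in replicate 1.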
